A study of Saccharomyces cerevisiae with 4 samples.

Results

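The loss of UBP10 in cells that keep SIR4 was read from 2 of the 4 arrays of the study, the ubp10 null and its wild type, with all 9275 non-control probe sets and the 5656 genes they name. The organism was the budding yeast Saccharomyces cerevisiae. The ubp10 null lacks a working UBP10 gene, and the wild type was W303-1A, a laboratory haploid strain that carries both UBP10 and SIR4. The other arrays came from a double null that lacks UBP10 and SIR4 and from a strain labelled as a sir4 null. Total RNA of exponentially growing cells of each strain was hybridised to 1 Affymetrix Yeast Genome S98 array. How the genes were deleted, the selection marker, the growth medium and the number of cultures are not given in the sources used here. With 1 array a strain no difference has a replicate check, so each is given by its size alone, and a ratio between these arrays compares 2 RNA samples.

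Ubp10 is a ubiquitin-specific protease, an enzyme that cuts the small protein ubiquitin from other proteins. It is best known for removing ubiquitin from histone H2B and for its part in keeping genes near telomeres and in the ribosomal DNA silent. Other known substrates are the replication clamp PCNA and the largest subunit of RNA polymerase I. Cells without Ubp10 grow slowly.

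The value of a probe set is an intensity in arbitrary units, found by subtracting mismatch probes from their perfect-match partners and averaging. Values under a floor of 6.67 units, 3 times the noise SD of 2.22 units pooled over all 4 arrays, were raised to the floor. Taken alone, the noise SD was 2.97 units in the ubp10 null and 2.37 in the wild type. The part of this difference in the counts near the floor was not tested. Calls needed 13.3 units or more on the brighter array and a ratio of 2 or more between the arrays. Where 1 array lay at the floor the true ratio may be larger, and "at least" stands before its fold.

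The deleted gene was checked first. UBP10 was at the floor in the ubp10 null and read 247.9 units in the wild type, at least 37.2-fold lower, and it was also at the floor in the double null but read 269.2 units on the array labelled sir4 null. Its neighbours on chromosome XIV did not move alike. MRPL19, which encodes a mitochondrial ribosomal protein, had 98.8 units in the ubp10 null, against 39.1 in the wild type, 2.53-fold higher. SWT21, a gene linked to splicing, stood at 10 units in the ubp10 null and at 9.6 in the wild type. MRPL19 read 61.4 units in the double null and 39.3 on the array labelled sir4 null, and was not called there. Of the 6 marker genes that are mutated in W303 strains, 2 were higher in the ubp10 null. HIS3, of histidine synthesis, read 93.8 units in the ubp10 null and 33.5 in the wild type, 2.8-fold higher, and ADE2, of adenine synthesis, had 68.3 units in the ubp10 null, against 27.3 in the wild type, 2.5-fold higher. LEU2, TRP1, URA3 and CAN1 were not called. Whether any of these genes marks the deletion was not tested.

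Both arrays were alike in scale, with 73.7% of probe sets above the floor in the ubp10 null and 69.4% in the wild type. Genes above the floor on both had a median log2 ratio of -0.04. The 9 spiked control probe sets gave ratios of ubp10 null to wild type between 1.01 and 1.42, with a median of 1.19. The 3′ end of ACT1 was 1.12 times as bright as its 5′ end in the ubp10 null and 1.55 times in the wild type, and for SPT15 the ratios were 1.45 and 2.11. On the array labelled sir4 null the same ratios were 86.93 and 18.69, which sets that array apart from the other 3.

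Markers of the a mating type were present on both arrays. MFA2, which encodes a precursor of a-factor, stood at 1195.7 units in the ubp10 null and at 1117.4 in the wild type. STE2, the receptor for alpha-factor, read 117.1 units in the ubp10 null and 231.2 in the wild type. MF(ALPHA)1, the alpha-factor gene, was at the floor in the ubp10 null and in the wild type. Among markers of sporulating diploids IME2, SPO11 and SPR3 were at the floor on both arrays, SPS4 had 8.7 units in the ubp10 null, against 9.6 in the wild type, and NDT80 stood at 13.4 units in the ubp10 null and at 10.7 in the wild type. IME1, which encodes the regulator that starts meiosis, read 34.5 units in the ubp10 null and 14.2 in the wild type, 2.43-fold higher. Thus 1 of 6 sporulation markers was called, and the 5 others lay at or near the floor.

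In all, 534 of 5656 genes (9.44%) were called higher in the ubp10 null and 476 (8.42%) lower. Fewer cells of a kind and less RNA of a gene in each cell cannot be told apart in these bulk samples. Large differences lay on the higher side. At 4-fold or more there were 127 genes higher and 21 lower, at 8-fold 44 higher and 1 lower, and at 16-fold 19 higher and 1 lower, the 1 being UBP10 itself. In 90 of the higher genes the wild type was at the floor, and in 38 of the lower genes the ubp10 null was. The share called higher was largest among genes just above the floor: it was 20.1% of the 546 genes with 6.7 to 13.3 units in the wild type and 1.1% of the 456 genes over 427 units. A gene below 13.3 units in the wild type cannot be called lower, since the brighter value has to reach that minimum. Above it the share called lower was 13% at 53.4 to 106.7 units, where it was largest, and 8.55% over 427 units. Genes called higher had a median coding-gene length of 1147 bases, those called lower 1326 bases and those not called 1251 bases.

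**Figure D1:**
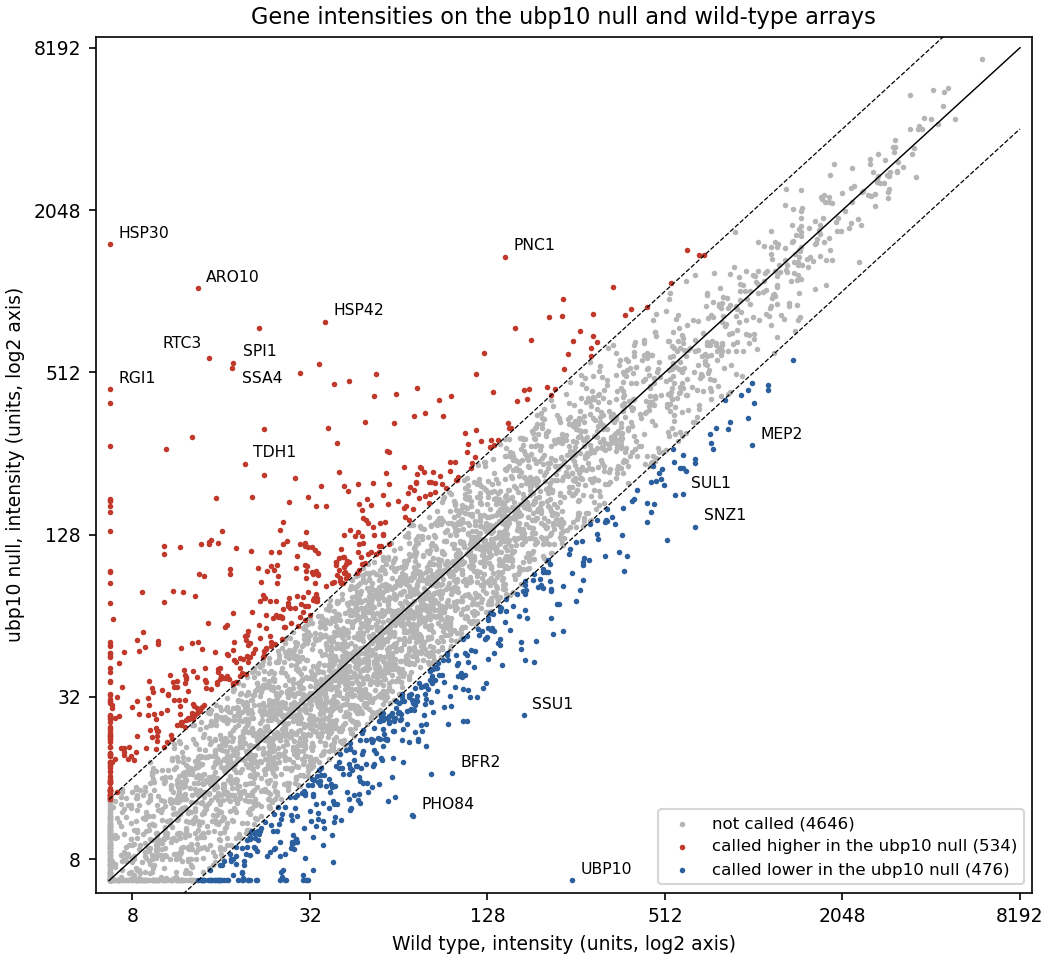
Intensity of each of the 5656 genes in the ubp10 null (vertical log2 axis, units) and in the wild type (horizontal log2 axis, units), each point being 1 gene with values raised to the floor of 6.67 units. The solid line marks equal values and the dashed lines a ratio of 2. Points far from the line lie mostly above it, and UBP10 at the bottom is the only gene more than 8-fold lower.

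Stress-responsive genes were, of the 53 gene lists, the group with the largest share called higher in the ubp10 null. The lists were written with earlier results of these data known, so their counts and order describe the arrays and support nothing further. Of 38 general stress genes, those that yeast turns on under many kinds of harm through the factors Msn2 and Msn4, 25 were called higher, 1 was lower and 12 were not called. Their median log2 ratio was 2.02, against 0 over all genes. The shares called over all genes, 9.44% higher and 8.42% lower, are the measure for this and every later list in this pair of arrays. They are not matched for brightness. Of genes with 53.4 to 106.7 units in the wild type 6.36% were higher and 13% lower, with a median log2 ratio of -0.136. Over 427 units the shares were 1.1% and 8.55%, with a median of -0.141. Small falls and few rises in lists of bright genes may thus be shared by other genes as bright, which was not tested. The 35 heat shock and cytosolic chaperone genes had 13 higher and 1 lower, and their median was 0.55. Among 24 trehalose and glycogen genes 9 were called higher and 0 lower, and the median was 0.73.

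**Figure D2:**
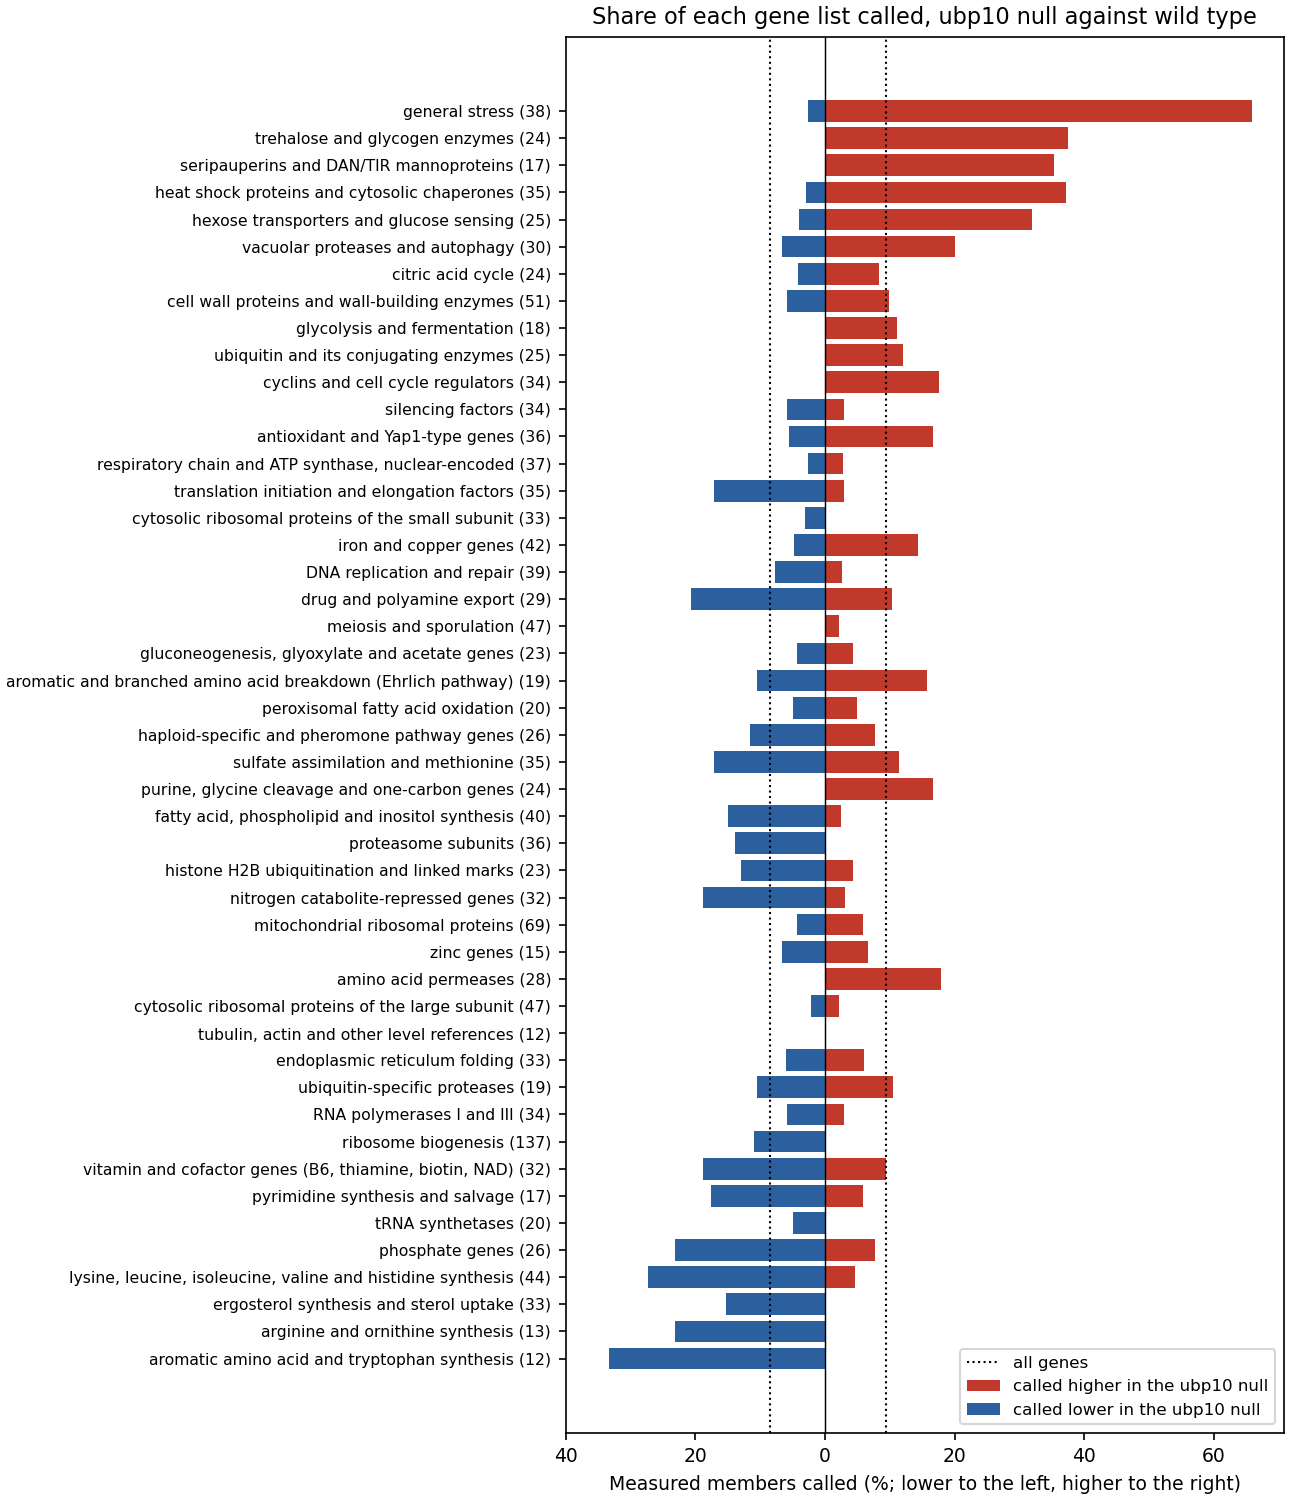
Share of the measured members of each gene list called higher (red, to the right) or lower (blue, to the left) in the ubp10 null against wild type, in percent, with the number of measured members in brackets and lists of fewer than 12 left out. Lists are ordered by median log2 ratio, and the dotted lines give the shares over all genes, 9.44% higher and 8.42% lower. General stress genes reach 65.8% higher at the top, and aromatic amino acid synthesis genes 33.3% lower at the bottom.

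Among the general stress genes, several that were near the floor in the wild type were bright in the ubp10 null. RTC3, a small stress-induced gene, had 578.3 units in the ubp10 null, against 14.5 in the wild type, 39.9-fold higher. YRO2, which encodes a membrane protein related to Hsp30, read 170.2 units in the ubp10 null and was at the floor in the wild type, at least 25.5-fold higher. TSL1, a regulatory subunit of the trehalose synthase complex, stood at 212.5 units in the ubp10 null and at 22.3 in the wild type, 9.53-fold higher. STF2, which encodes a protein that protects cells from drying, read 503.3 units in the ubp10 null and 53.4 in the wild type, 9.43-fold higher. PNC1 encodes nicotinamidase, which clears nicotinamide, an inhibitor of the silencing deacetylase Sir2. It had 1377.2 units in the ubp10 null, against 147.3 in the wild type, 9.35-fold higher. YGP1, a secreted glycoprotein made when nutrients run short, had 475.4 units in the ubp10 null, against 43.3 in the wild type, 11-fold higher. The exception was ALD2, a cytosolic aldehyde dehydrogenase, which stood at 7.6 units in the ubp10 null and at 16.1 in the wild type, 2.12-fold lower. Of the factors themselves, MSN4 read 64.7 units in the ubp10 null and 22.7 in the wild type, 2.85-fold higher, while MSN2, not called, had 173.0 units in the ubp10 null, against 109.2 in the wild type.

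HSP42 and HSP26 encode small heat shock proteins that hold unfolded proteins in aggregates. HSP42 stood at 790.0 units in the ubp10 null and at 36.1 in the wild type, 21.9-fold higher, and HSP26 read 154.7 units in the ubp10 null and was at the floor in the wild type, at least 23.2-fold higher. HSP104, the disaggregase that pulls proteins out of aggregates, read 353.2 units in the ubp10 null and 72.0 in the wild type, 4.91-fold higher. Its mitochondrial relative HSP78 had 305.3 units in the ubp10 null, against 107.2 in the wild type, 2.85-fold higher. BTN2 and CUR1 are related genes for factors that sort misfolded proteins to deposits. BTN2 stood at 548.6 units in the ubp10 null and at 34.3 in the wild type, 16-fold higher, whereas CUR1 read 71.6 units in the ubp10 null and 27.0 in the wild type, 2.65-fold higher. FES1, a nucleotide exchange factor of Hsp70, had 729.0 units in the ubp10 null, against 264.1 in the wild type, 2.76-fold higher. APJ1, which encodes an Hsp40 co-chaperone, stood at 50.1 units in the ubp10 null and at 9.8 in the wild type, 5.11-fold higher. Chaperone genes not called include the mitochondrial HSP60, the Hsp40 gene YDJ1 and the Hsp90 partner STI1. The gene of their activator, HSF1, read 69.8 units in the ubp10 null and 51.6 in the wild type. The only chaperone gene called lower was CPR3, a mitochondrial cyclophilin, which had 226.9 units in the ubp10 null, against 578.0 in the wild type, 2.55-fold lower.

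Storage carbohydrate genes were higher on the side of synthesis and of breakdown. GPH1, glycogen phosphorylase, read 93.3 units in the ubp10 null and was at the floor in the wild type, at least 14-fold higher. GLC3, the glycogen branching enzyme, stood at 72.2 units in the ubp10 null and at 10.2 in the wild type, 7.08-fold higher. Of the trehalose genes, TPS2, the phosphatase that completes trehalose, read 330.8 units in the ubp10 null and 61.7 in the wild type, 5.36-fold higher. The synthase TPS1 had 137.7 units in the ubp10 null, against 75.7 in the wild type. The trehalase NTH1 stood at 76.6 units in the ubp10 null and at 51.9 in the wild type. Neither of these was called, so within the trehalose pathway the called genes were TPS2 and TSL1.

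The brightest of the higher genes with the wild type at the floor were HSP30, RGI1, EGO4, ROQ1, MGA1 and TMA10. HSP30 encodes a plasma membrane protein that restrains the proton pump during stress. It read 1535.5 units in the ubp10 null and was at the floor in the wild type, at least 230.2-fold higher. RGI1, which takes part in energy metabolism, read 444.7 units in the ubp10 null and was at the floor in the wild type, at least 66.7-fold higher. ROQ1, whose product redirects the ubiquitin ligase Ubr1 to misfolded proteins, read 272.8 units in the ubp10 null and was at the floor in the wild type, at least 40.9-fold higher. MGA1, a gene for a protein related to heat shock factors, read 173.5 units in the ubp10 null and was at the floor in the wild type, at least 26-fold higher. TMA10, whose product is found with ribosomes, read 172.4 units in the ubp10 null and was at the floor in the wild type, at least 25.8-fold higher. EGO4 read 393.8 units in the ubp10 null and was at the floor in the wild type, at least 59-fold higher. In all of these the lower bound is set by the floor, and on the double null array ROQ1 and MGA1 were at the floor.

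Yeast carries many enzymes in pairs. In some pairs 1 gene is used during rapid growth and the other under stress or glucose shortage. Each of 27 pairs with both genes measured was given a first and a second gene. Not every second gene is one of rapid growth, so the order is only a label. The first gene was called higher in 20 pairs. The second was called higher in 2, GSY2 of glycogen synthase (3.70-fold) and INH1, an ATP synthase inhibitor (2.15-fold). Both genes were higher in 2 pairs, only the first in 18, and neither in 7. The ratio was larger for the first gene in 26 of 27 pairs, the exception being the Hsp70 genes SSA3 and SSA2. The pairs are not matched for brightness. In the wild type SOL4 read 8.6 units and its partner SOL3 712.6, and HXK1 was at the floor beside 912.6 for HXK2. Of all genes with 6.7 to 13.3 units there 20.1% were called higher, against 1.1% over 427 units. The part of brightness in this split was not tested. These pairs were listed with earlier results of these data known, so the counts describe the arrays and support nothing further.

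**Figure D3:**
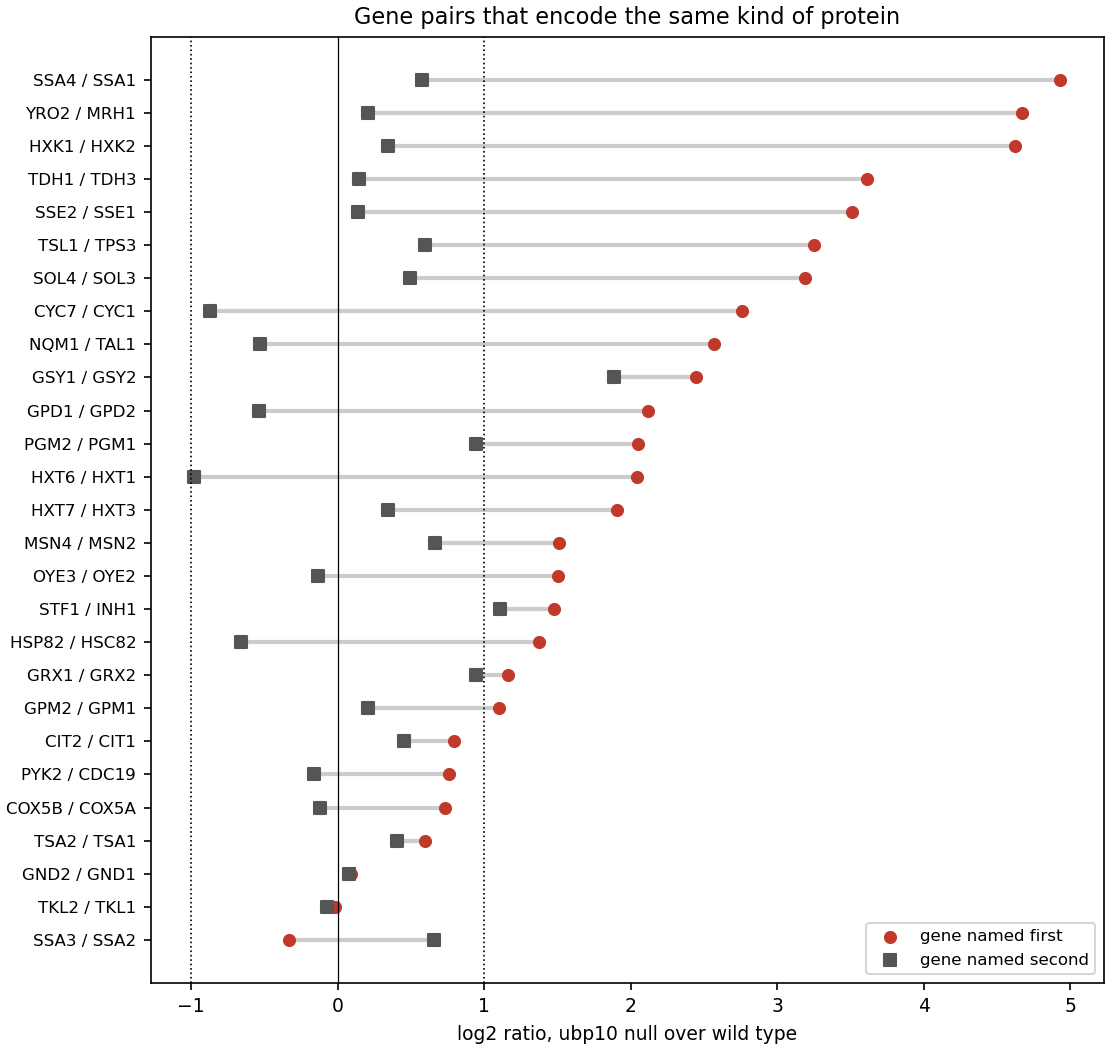
log2 ratio of ubp10 null to wild type for 27 pairs of genes that encode the same kind of protein. The gene of each pair named first is a red circle and the gene named second a grey square. The dotted lines mark a ratio of 2 either way. The red circle lies to the right of its grey square in 26 of the 27 pairs.

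The size of this split differed from pair to pair. For the Hsp70 genes, SSA4 read 531.1 units in the ubp10 null and 17.4 in the wild type, 30.5-fold higher, while SSA1 had 2772.3 units in the ubp10 null, against 1863.0 in the wild type. The hexokinase gene HXK1 read 164.0 units in the ubp10 null and was at the floor in the wild type, at least 24.6-fold higher, while HXK2 stood at 1159.0 units in the ubp10 null and at 912.6 in the wild type. Glyceraldehyde-3-phosphate dehydrogenase, a glycolytic enzyme, showed the same pattern, with TDH1 at 234.6 units in the ubp10 null and 19.2 in the wild type (12.2-fold higher). TDH3 read 4962.1 units in the ubp10 null and 4478.5 in the wild type. In some pairs the second gene was dimmer in the ubp10 null while its partner was brighter. CYC7, a cytochrome c gene of low oxygen, had 91.4 units in the ubp10 null, against 13.5 in the wild type, 6.77-fold higher, while CYC1 stood at 303.6 units in the ubp10 null and at 555.1 in the wild type. GPD1, which makes glycerol under osmotic stress, read 506.9 units in the ubp10 null and 117.0 in the wild type, 4.33-fold higher, while GPD2 had 325.2 units in the ubp10 null, against 472.5 in the wild type. The transaldolase gene NQM1 read 39.5 units in the ubp10 null and was at the floor in the wild type, at least 5.92-fold higher, while TAL1 stood at 220.8 units in the ubp10 null and at 319.2 in the wild type. HXT6, a high-affinity hexose transporter, read 954.7 units in the ubp10 null and 231.8 in the wild type, 4.12-fold higher, while the low-affinity HXT1 had 296.8 units in the ubp10 null, against 585.8 in the wild type. None of CYC1, GPD2, TAL1 and HXT1 was called. HXT6 and HXT7 are near-identical, so their signals may be shared.

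Glucose transport and sensing genes had 8 of 25 higher and 1 lower and a median log2 ratio of 0.34. Lists share some members, so they are not separate groups, and GLK1, named below, is also a general stress gene. Counted once each, 137 genes of the lists were called higher and 130 lower. MTH1, a co-repressor of hexose transporter genes, stood at 52.1 units in the ubp10 null and at 8.3 in the wild type, 6.28-fold higher. HXT4, a high-affinity transporter, read 95.3 units in the ubp10 null and 17.2 in the wild type, 5.54-fold higher. GLK1, glucokinase, had 425.7 units in the ubp10 null, against 62.8 in the wild type, 6.78-fold higher. HXT2, another high-affinity transporter, went the other way: it had 237.6 units in the ubp10 null, against 547.4 in the wild type, 2.3-fold lower. In central energy metabolism the shares called lay near or below those over all genes (9.44% higher and 8.42% lower). Of 18 glycolysis and fermentation genes 2 were higher (11.1%) and 0 lower, of 24 citric acid cycle genes 2 (8.33%) and 1, and of 37 nuclear-encoded respiratory genes 1 and 1. Gluconeogenesis and acetate genes had 1 of 23 higher and 1 lower, and peroxisomal fatty acid oxidation genes 1 of 20 higher and 1 lower. The single respiratory gene called lower was ATP1, a catalytic-core subunit of ATP synthase, which stood at 253.4 units in the ubp10 null and at 588.5 in the wild type, 2.32-fold lower. LAT1, a subunit of pyruvate dehydrogenase, read 669.1 units in the ubp10 null and 250.6 in the wild type, 2.67-fold higher. SDH6, an assembly factor of succinate dehydrogenase outside that list, had 316.3 units in the ubp10 null, against 22.4 in the wild type, 14.1-fold higher.

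The breakdown of aromatic amino acids held the largest ratio among genes measured above the floor on both arrays. In the Ehrlich pathway amino acids lose their amino group and are turned into alcohols, and Aro80 switches on its genes ARO9 and ARO10 when aromatic amino acids are present. ARO10, the decarboxylase, stood at 1048.2 units in the ubp10 null and at 13.3 in the wild type, 78.8-fold higher. ARO9, the aminotransferase, read 745.6 units in the ubp10 null and 21.5 in the wild type, 34.7-fold higher. ARO80 itself had 23.3 units in the ubp10 null, against 6.7 in the wild type, 3.48-fold higher, its wild-type value being just above the floor. Other members of the 19-gene list were not higher, and the list median was 0. BAT2, the aminotransferase for branched-chain amino acids, stood at 91.8 units in the ubp10 null and at 184.3 in the wild type, 2.01-fold lower, and SFA1, an alcohol dehydrogenase, read 32.7 units in the ubp10 null and 78.5 in the wild type, 2.4-fold lower. On the array labelled sir4 null ARO10 read 380.9 units and ARO9 559.9, so a level above wild type was not limited to strains without UBP10.

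Genes that build amino acids lay lower. Of 12 genes of aromatic amino acid and tryptophan synthesis 4 were called lower and 0 higher, with a median log2 ratio of -0.89. Of 13 arginine and ornithine genes 3 were lower and 0 higher, with a median of -0.75, and 12 of the 13 had a ratio below 1. Of 44 genes of lysine, leucine, isoleucine, valine, histidine and related synthesis 12 were lower and 2 higher, with a median of -0.43. ARO4, which catalyses the first step of the aromatic pathway, had 336.4 units in the ubp10 null, against 848.5 in the wild type, 2.52-fold lower. TRP2, which encodes part of the enzyme that starts tryptophan synthesis, stood at 142.3 units in the ubp10 null and at 444.5 in the wild type, 3.12-fold lower. TYR1, of tyrosine synthesis, read 28.4 units in the ubp10 null and 68.2 in the wild type, 2.4-fold lower. ARG7, which makes ornithine, had 194.9 units in the ubp10 null, against 507.4 in the wild type, 2.6-fold lower. LYS1, of the last step to lysine, stood at 458.1 units in the ubp10 null and at 1144.0 in the wild type, 2.5-fold lower, and ILV3, dihydroxyacid dehydratase of branched-chain synthesis, read 567.3 units in the ubp10 null and 1396.6 in the wild type, 2.46-fold lower. The largest ratio among these lower calls was that of TRP4, the second enzyme of tryptophan synthesis, which had 80 units in the ubp10 null, against 263.5 in the wild type, 3.29-fold lower. SER3, of serine synthesis, was an exception beside HIS3, and stood at 72.8 units in the ubp10 null and at 33.6 in the wild type, 2.17-fold higher. GCN4, the activator of amino acid synthesis genes, read 1527.2 units in the ubp10 null and 1241.2 in the wild type, although its level is set largely by translation, which an array does not measure.

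Sulfur genes were divided. Of 35 genes for sulfate assimilation and methionine 6 were lower (17.1%) and 4 higher (11.4%). Their median of -0.01 turns to 0.01 under cyclic loess and 0.03 with the median ratio set to 0. The lower genes include steps of sulfate uptake and reduction. SUL1, a sulfate permease, had 180.8 units in the ubp10 null, against 590.2 in the wild type, 3.26-fold lower. MET3, ATP sulfurylase, stood at 244.3 units in the ubp10 null and at 646.1 in the wild type, 2.65-fold lower, and MET5, a subunit of sulfite reductase, read 420.8 units in the ubp10 null and 930.7 in the wild type, 2.21-fold lower. SSU1, a pump that exports sulfite, had 27.4 units in the ubp10 null, against 170.3 in the wild type, 6.21-fold lower, the lowest ratio of all genes measured on both arrays above the floor. The higher genes include MET2, which makes O-acetylhomoserine and stood at 606.3 units in the ubp10 null and at 124.9 in the wild type, 4.85-fold higher, and MUP3, a methionine permease, which read 96.0 units in the ubp10 null and 28.8 in the wild type, 3.33-fold higher. The regulators MET28 and MET32 were also higher: MET28 had 199.9 units in the ubp10 null, against 82.5 in the wild type, 2.42-fold higher, and MET32 stood at 126.3 units in the ubp10 null and at 48.0 in the wild type, 2.63-fold higher.

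Purine genes had 4 of 24 members higher (16.7%) and 0 lower. Their median of -0.02 turns to 0.01 under cyclic loess and 0.02 with the median ratio set to 0. ADE1 read 744.7 units in the ubp10 null and 159.3 in the wild type, 4.67-fold higher, and ADE17 had 402.8 units in the ubp10 null, against 87.6 in the wild type, 4.6-fold higher; both encode enzymes of purine synthesis. SHM2, the cytosolic serine hydroxymethyltransferase that feeds 1-carbon units into the pathway, stood at 1095.2 units in the ubp10 null and at 536.3 in the wild type, 2.04-fold higher. Pyrimidine genes had 1 of 17 higher (5.88%) and 3 lower (17.6%). URA2, the first enzyme of pyrimidine synthesis, read 468.1 units in the ubp10 null and 1010.4 in the wild type, 2.16-fold lower. Among 32 vitamin and cofactor genes 6 were lower (18.8%) and 3 higher (9.38%). SNZ1 and SNO1 act together in vitamin B6 synthesis. SNZ1 had 137.2 units in the ubp10 null, against 648.9 in the wild type, 4.73-fold lower, and SNO1 stood at 127.6 units in the ubp10 null and at 365.1 in the wild type, 2.86-fold lower. VHT1, the biotin transporter, read 71.0 units in the ubp10 null and 224.6 in the wild type, 3.16-fold lower.

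Genes for nitrogen supply had a median just below 0. Of 32 genes repressed by good nitrogen sources 6 were lower (18.8%) and 1 higher (3.12%), with a median of -0.10. MEP2, an ammonium transporter and sensor, had 275.3 units in the ubp10 null, against 1011.4 in the wild type, 3.67-fold lower. DAL7, of allantoin use, was at the floor in the ubp10 null and read 30.4 units in the wild type, at least 4.56-fold lower. Among 28 amino acid permeases and their regulators 5 were higher and 0 lower (median -0.11). STP4, a zinc finger gene related to the permease regulators STP1 and STP2, stood at 265.2 units in the ubp10 null and at 10.4 in the wild type, 25.5-fold higher. PUT4, the proline permease, read 331.9 units in the ubp10 null and 150.2 in the wild type, 2.21-fold higher.

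Ribosome biogenesis genes had 15 of 137 members lower and 0 higher, beside 8.42% lower over all genes. The share was 10.9%, and 90 of the 137 had a ratio below 1, with a median log2 ratio of -0.23. BFR2, part of the complex that processes the small subunit RNA, had 16.7 units in the ubp10 null, against 97.2 in the wild type, 5.82-fold lower. DIP2, a component of the U3 particle in the same complex, stood at 26.0 units in the ubp10 null and at 109.5 in the wild type, 4.21-fold lower. LTV1, which takes part in export of the small subunit, read 23.9 units in the ubp10 null and 76.9 in the wild type, 3.22-fold lower. PWP2, another U3 protein, had 8.2 units in the ubp10 null, against 25.4 in the wild type, 3.1-fold lower. Of 34 genes of RNA polymerases I and III 2 were lower (5.88%) and 1 higher (2.94%), below the shares over all genes. RPO31, the largest subunit of RNA polymerase III, stood at 32.2 units in the ubp10 null and at 73.7 in the wild type, 2.29-fold lower. RPA190, the RNA polymerase I subunit that Ubp10 acts on, read 52.0 units in the ubp10 null and 31.6 in the wild type as the mean of 7 probe sets and was not called.

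Cytosolic ribosomal protein genes were rarely called, with 1 of 47 large subunit genes higher and 1 lower, and 0 of 33 small subunit genes higher and 1 lower. Of 35 translation factors 6 were lower (17.1%) and 1 higher (2.86%). GCD7 and GCD1 encode subunits of eIF2B, which recharges the initiation factor eIF2. GCD7 had 43.3 units in the ubp10 null, against 184.7 in the wild type, 4.27-fold lower, and GCD1 stood at 139.7 units in the ubp10 null and at 286.0 in the wild type, 2.05-fold lower. NIP1, a subunit of eIF3, read 51.8 units in the ubp10 null and 187.0 in the wild type, 3.61-fold lower. TIF3, eIF4B, had 699.5 units in the ubp10 null, against 291.1 in the wild type, 2.4-fold higher. Of 20 tRNA synthetase genes 18 had a ratio below 1, with a median log2 ratio of -0.32, yet only ALA1 was called: it had 280.5 units in the ubp10 null, against 735.1 in the wild type, 2.62-fold lower. Mitochondrial ribosomal protein genes had 4 of 69 higher (5.8%) and 3 lower (4.35%), below the shares over all genes.

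In the ubiquitin system itself, UBI4, the polyubiquitin gene that is induced by stress, stood at 1060.9 units in the ubp10 null and at 341.6 in the wild type, 3.11-fold higher. CDC34, the ubiquitin-conjugating enzyme of cell cycle entry, read 127.7 units in the ubp10 null and 41.8 in the wild type, 3.06-fold higher. In all 3 of 25 ubiquitin and conjugating enzyme genes were higher (12%, against 9.44% of all genes) and 0 lower. Of 36 proteasome genes 5 were lower (13.9%, against 8.42% of all genes) and 0 higher, with a median of -0.07. RPT2, an ATPase of the regulatory particle, had 29.3 units in the ubp10 null, against 91.2 in the wild type, 3.11-fold lower, and PUP3, a core subunit, stood at 220.6 units in the ubp10 null and at 602.6 in the wild type, 2.73-fold lower. RPN4, their activator, was not called and read 204.2 units in the ubp10 null and 106.2 in the wild type. Among 19 proteases that remove ubiquitin 2 were higher and 2 lower (10.5% each way), UBP10 included. UBP14, which takes apart free ubiquitin chains, had 88.0 units in the ubp10 null, against 31.0 in the wild type, 2.84-fold higher. UBP12 stood at 9.8 units in the ubp10 null and at 28 in the wild type, 2.86-fold lower. UBP8, the other protease that acts on histone H2B, was not called and read 62.1 units in the ubp10 null and 35.2 in the wild type.

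Of 23 genes for H2B ubiquitination and the histone methylation that depends on it, 3 were lower (13%, against 8.42% of all genes) and 1 higher (4.35%, against 9.44%). The split was 6 lower and 0 higher under quantile normalization, and 1 each way with the floor doubled. DOT1, a methyltransferase for histone H3, had 10.2 units in the ubp10 null, against 24.8 in the wild type, 2.43-fold lower. SWD1, a subunit of the Set1 complex that methylates histone H3 elsewhere, stood at 17.5 units in the ubp10 null and at 41.1 in the wild type, 2.35-fold lower, and SPP1, of the same complex, read 8.4 units in the ubp10 null and 17.1 in the wild type, 2.04-fold lower. PAF1, an elongation factor needed for H2B ubiquitination, had 39.3 units in the ubp10 null, against 18.8 in the wild type, 2.09-fold higher. RAD6, which puts ubiquitin on H2B, stood at 206.8 units in the ubp10 null and at 109.4 in the wild type, and its partner BRE1 read 38.7 units in the ubp10 null and 54.3 in the wild type. Neither was called. Of 34 silencing factors 2 were lower (5.88%) and 1 higher (2.94%), below the shares over all genes. RAP1, the telomere and promoter binding factor that recruits Sir proteins, had 12.4 units in the ubp10 null, against 37.0 in the wild type, 2.98-fold lower. SIR2 stood at 62.6 units in the ubp10 null and at 38.1 in the wild type, and SIR3 read 33.8 units in the ubp10 null and 39.4 in the wild type. SIR4 was near or at the floor on both arrays, with 10.8 units in the wild type, so these values cannot show its state.

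The 5 histone genes with probe sets of their own did not reach a ratio of 2. HTB1, for histone H2B, had 1798.3 units in the ubp10 null, against 1378.3 in the wild type, and HTB2, its second copy, stood at 957.7 units in the ubp10 null and at 529.8 in the wild type. POL30, the gene for PCNA, read 135.2 units in the ubp10 null and 182.3 in the wild type. Mating genes of the a cell were somewhat dimmer, with 6 of 7 ratios below 1 and 2 calls at the limit of the rule. AGA2, a subunit of the adhesion protein, had 54.0 units in the ubp10 null, against 108.9 in the wild type, 2.02-fold lower, and BAR1, the protease that degrades alpha-factor, stood at 73.9 units in the ubp10 null and at 148.4 in the wild type, 2.01-fold lower. Neither was called under cyclic loess or with the median ratio set to 0. GPA1, the G protein subunit of the pheromone response, read 22.4 units in the ubp10 null and 74.3 in the wild type, 3.32-fold lower. STE3, the a-factor receptor of alpha cells, had 16.3 units in the ubp10 null, against 6.7 in the wild type, 2.43-fold higher, close to the brightness minimum.

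Genes near chromosome ends were examined because Ubp10 is linked to telomeric silencing. Positions were counted among protein-coding genes with probe sets of their own. Genes with shared probe sets alone took no position, so repeated genes at the ends are partly left out. The outermost 10 positions so counted on the 32 chromosome arms held 320 genes. Of these 8.44% were higher and 8.12% lower, close to the shares over all genes. At the floor on both arrays were 18.4% of them, against 8.15% of genes beyond position 80. In positions 11 to 20 the shares were 4.06% higher and 8.75% lower, and beyond position 80 they were 9.54% higher and 8.59% lower. The 7 measured COS genes, a family found near telomeres, had 0 calls and a median log2 ratio of 0.36. Of 24 probe sets listed for the YRF1 helicases, which lie in telomeric repeats, 3 were called higher and 2 called lower (median log2 ratio 0). Of 17 seripauperin and related mannoprotein genes, many of them near chromosome ends, 6 were called higher and 0 lower (median 0.62). With plain probe sets alone, 6 of these genes were measured and 1 was higher (median 0.23), and at a ratio of 3 there were 0 calls. PAU10 stood at 92.9 units in the ubp10 null and at 32.4 in the wild type, 2.87-fold higher, and DAN4, a cell wall mannoprotein of anaerobic growth, read 22.7 units in the ubp10 null and 9.3 in the wild type, 2.44-fold higher. PAU genes are near-identical in sequence, so their signals may be shared. HXK1 and DIA1, both among the outermost 10 so counted, had the largest ratios there. DIA1 had 462.1 units in the ubp10 null, against 38.5 in the wild type, 12-fold higher.

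Along chromosomes the ratios were even. The median log2 ratio of the 16 nuclear chromosomes lay between -0.133 and 0.021, each over genes above the floor on both arrays. The longest run of adjacent genes called lower was 5 genes on chromosome XIII, namely TDA9, DUS1, CFF1, CPR3 and BET5. BET5, a subunit of the TRAPP complex of vesicle traffic, stood at 93.4 units in the ubp10 null and at 198.2 in the wild type, 2.12-fold lower, and DUS1, a tRNA-modifying enzyme, read 31.9 units in the ubp10 null and 69.1 in the wild type, 2.17-fold lower. The longest run called higher was 4 genes on chromosome VII, namely CPD1, SOL4, MGA1 and RIE1. SOL4, of the pentose phosphate pathway, had 78.4 units in the ubp10 null, against 8.6 in the wild type, 9.12-fold higher, and RIE1, for an RNA-binding protein, stood at 417.5 units in the ubp10 null and at 52.8 in the wild type, 7.91-fold higher. Most calls stood alone: 412 higher genes and 402 lower genes had no neighbour called in the same direction.

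Among growth and division genes, 6 of 34 cyclins and cell cycle regulators were higher (17.6%, against 9.44% of all genes) and 0 lower (against 8.42%). At a ratio of 3 or more, 1 of them was higher. CIP1, an inhibitor of cyclin-dependent kinase, read 509.6 units in the ubp10 null and 29.6 in the wild type, 17.2-fold higher. SIC1, the inhibitor that holds cells before DNA replication, had 141.9 units in the ubp10 null, against 55.2 in the wild type, 2.57-fold higher. CLN3, the cyclin that starts the cycle, stood at 259.7 units in the ubp10 null and at 108.9 in the wild type, 2.38-fold higher, and WHI5, the repressor that Cln3 counteracts, read 15.5 units in the ubp10 null and was at the floor in the wild type, at least 2.32-fold higher. Activators and inhibitors of cycle entry thus both stood among the higher genes. Of 39 DNA replication and repair genes 3 were lower (7.69%) and 1 higher (2.56%), and of 47 meiosis genes 1 was higher (2.13%) and 0 lower. All of these lie below the shares over all genes.

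Membrane, wall and metal genes gave mixed counts. Of 33 ergosterol genes 5 were lower (15.2%, against 8.42% of all genes) and 0 higher (against 9.44%). Their median log2 ratio was -0.45, and 26 of 33 had a ratio below 1. ECM22, an activator of sterol genes, read 17.7 units in the ubp10 null and 45.8 in the wild type, 2.59-fold lower, and ERG24, a sterol reductase, had 45.7 units in the ubp10 null, against 108.9 in the wild type, 2.38-fold lower. Of 40 fatty acid and phospholipid genes 6 were lower (15%) and 1 higher (2.5%). AUR1, of sphingolipid synthesis, stood at 110.4 units in the ubp10 null and at 358.5 in the wild type, 3.25-fold lower, whereas PSD1, which makes phosphatidylethanolamine in mitochondria, read 434.0 units in the ubp10 null and 133.6 in the wild type, 3.25-fold higher. Of 51 cell wall genes 5 were higher (9.8%) and 3 lower (5.88%), near or below the shares over all genes. YPS3, a cell surface aspartyl protease, had 360.8 units in the ubp10 null, against 78.7 in the wild type, 4.58-fold higher, and CHS3, the main chitin synthase, stood at 56.3 units in the ubp10 null and at 134.8 in the wild type, 2.39-fold lower. Of 33 genes for folding in the endoplasmic reticulum 2 were higher and 2 lower (6.06% each way), below the shares over all genes. KAR2, the main Hsp70 of the endoplasmic reticulum, read 1015.1 units in the ubp10 null and 1102.1 in the wild type.

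Phosphate genes had 6 of 26 lower (23.1%, against 8.42% of all genes) and 2 higher (7.69%, against 9.44%), with a median of -0.34. PHO84, the high-affinity phosphate transporter, had 11.6 units in the ubp10 null, against 71.5 in the wild type, 6.16-fold lower. VTC1, of polyphosphate synthesis, stood at 235.4 units in the ubp10 null and at 649.3 in the wild type, 2.76-fold lower. PHO4, the activator of the pathway, read 63.0 units in the ubp10 null and 23.9 in the wild type, 2.64-fold higher, so activator and transporter went opposite ways. Iron and copper genes had 6 of 42 higher (14.3%) and 2 lower (4.76%). HMX1, heme oxygenase, had 335.3 units in the ubp10 null, against 49.3 in the wild type, 6.8-fold higher. FRE1, the reductase that acts first in iron and copper uptake, stood at 8.6 units in the ubp10 null and at 21.1 in the wild type, 2.45-fold lower, while FRE3, a reductase for siderophore iron, read 29.4 units in the ubp10 null and 8.0 in the wild type, 3.67-fold higher. Among 29 drug and polyamine exporters 6 were lower (20.7%) and 3 higher (10.3%). The polyamine exporters TPO4 and TPO2 were higher: TPO4 had 295.6 units in the ubp10 null, against 12.7 in the wild type, 23.3-fold higher, and TPO2 stood at 317.6 units in the ubp10 null and at 36.8 in the wild type, 8.63-fold higher. ATR1, a boron and drug exporter, read 54.6 units in the ubp10 null and 214.0 in the wild type, 3.92-fold lower. Of 36 antioxidant genes 6 were higher (16.7%) and 2 lower (5.56%). GPX1, a glutathione peroxidase, had 51.7 units in the ubp10 null, against 9.8 in the wild type, 5.28-fold higher, and SOD2, the mitochondrial superoxide dismutase, stood at 238.2 units in the ubp10 null and at 95.5 in the wild type, 2.49-fold higher. CTT1, the cytosolic catalase often used as a stress marker, read 13.4 units in the ubp10 null and was at the floor in the wild type, at least 2.01-fold higher, just past the brightness minimum.

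Of the 30 vacuolar and autophagy genes 6 were higher (20%, against 9.44% of all genes) and 2 lower (6.67%, against 8.42%). PRB1, a vacuolar protease, read 278.7 units in the ubp10 null and 110.1 in the wild type, 2.53-fold higher. ATG33, needed for the removal of mitochondria, had 143.0 units in the ubp10 null, against 26.0 in the wild type, 5.5-fold higher, whereas ATG11, a scaffold for selective autophagy, stood at 13.1 units in the ubp10 null and at 38.3 in the wild type, 2.92-fold lower.

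Among the largest falls, several genes stood in no list. HBS1, which helps to rescue stalled ribosomes, read 7.8 units in the ubp10 null and 38.4 in the wild type, 4.92-fold lower. CAK1, the kinase that activates cyclin-dependent kinases, had 6.7 units in the ubp10 null, against 31.1 in the wild type, 4.64-fold lower, only just above the floor. ABD1, the methyltransferase of the messenger RNA cap, stood at 13.6 units in the ubp10 null and at 62.2 in the wild type, 4.57-fold lower. BET3, a TRAPP subunit like BET5, read 43.7 units in the ubp10 null and 172.2 in the wild type, 3.94-fold lower. PMA2, a minor form of the plasma membrane proton pump, was at the floor in the ubp10 null and read 31.4 units in the wild type, at least 4.71-fold lower. RPN14, an assembly chaperone of the proteasome, was at the floor in the ubp10 null and read 31.2 units in the wild type, at least 4.68-fold lower. The genes with the ubp10 null at the floor were all dim in the wild type apart from UBP10, at 31.4 units or less.

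tRNA genes were called higher more often than protein-coding genes. Of 91 tRNA genes 28 were called higher (30.8%) and 0 lower, while 8.97% of 5486 protein-coding genes were higher and 8.55% lower. Among the tRNA genes 63 were above the floor in the ubp10 null against 47 in the wild type. Their median intensity was 13.5 units in the ubp10 null and 7.0 in the wild type. Protein-coding genes were brighter, with a wild-type median of 42.8 units, so the shares above are not matched for brightness. Over genes of every kind, 20.1% of those with 6.7 to 13.3 units in the wild type were called higher. Of those with 6.7 units or less there, 11.8% were. No gene so dim in the wild type can be called lower, so the 0 lower calls say little about tRNA genes. The other 2 arrays had fewer tRNA genes above the floor, 25 in the double null and 32 on the array labelled sir4 null. Of 92 tRNA probe sets 75 carry the suffix that marks a family of similar sequences and 3 have a plain name, so copies of a tRNA gene are not separate measurements. In 8 of the higher genes, all 72 bases long, the ubp10 null read 108.4 to 131.6 units and the wild type 10.2 to 16.1. All 8 were at the floor on both other arrays. The other 20 read 13.6 to 48.2 units in the ubp10 null and at most 13.8 in the wild type. With plain probe sets alone, 0 tRNA genes were called higher.

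**Figure D4:**
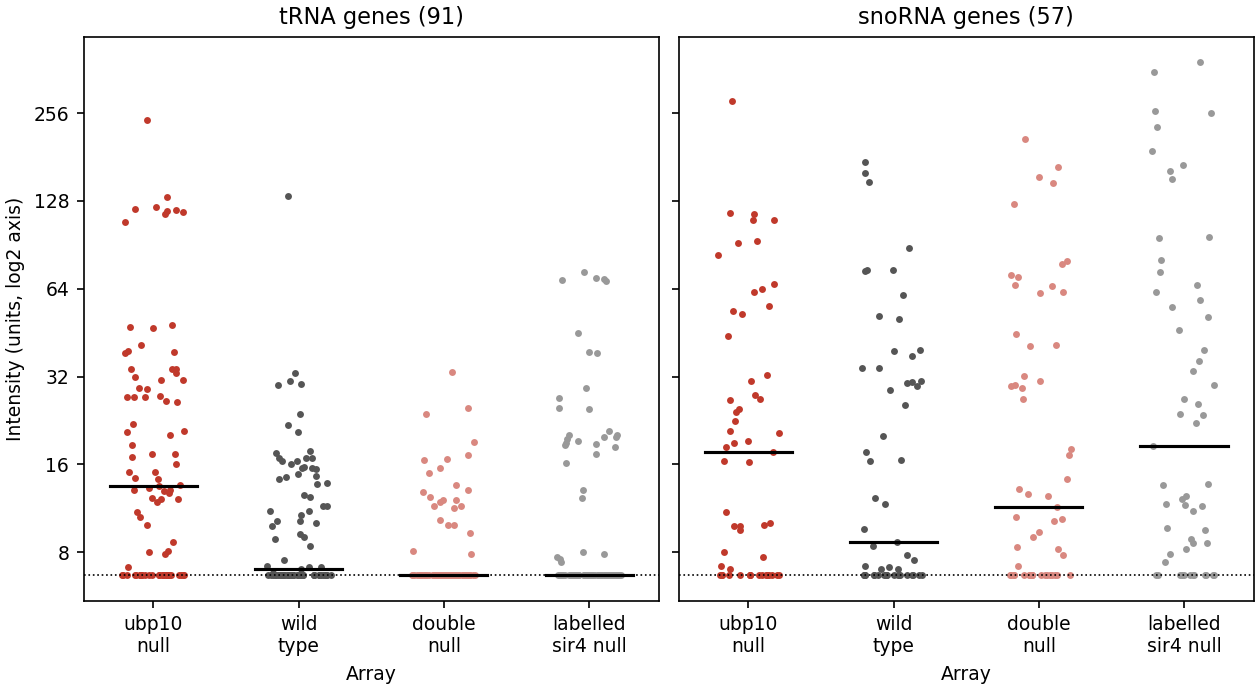
Intensity (units, log2 axis) of 91 tRNA genes (left) and 57 snoRNA genes (right) on each of the 4 arrays, with 1 point for a gene, a black bar for the median and a dotted line for the floor. The tRNA median is 13.5 units in the ubp10 null and 7.0 in the wild type, and the 8 brightest of the tRNA genes called higher lie at 108.4 units or more in the ubp10 null and at 16.1 or less in the wild type.

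Small nucleolar RNAs, which guide the modification and cutting of ribosomal RNA, went both ways, with 11 of 57 higher (19.3%) and 5 lower (8.77%). Over all genes 9.44% were higher and 8.42% lower. The snoRNA genes were dim, with a wild-type median of 8.7 units. Of genes of every kind with 6.7 to 13.3 units in the wild type, 20.1% were called higher, so the share of 19.3% is near that of dim genes. SNR8 had 280.7 units in the ubp10 null, against 39.4 in the wild type, 7.12-fold higher, and SNR31 stood at 55.9 units in the ubp10 null and at 8.7 in the wild type, 6.42-fold higher. SNR128, the U14 RNA needed to process small subunit RNA, read 109.7 units in the ubp10 null and 34.1 in the wild type, 3.22-fold higher. SNR44 had 62.6 units in the ubp10 null, against 174.7 in the wild type, 2.79-fold lower, and SNR51 stood at 19.0 units in the ubp10 null and at 61.0 in the wild type, 3.21-fold lower. Of RNAs that work in enzymes, RPR1, the RNA of RNase P that trims tRNA precursors, read 10.4 units in the ubp10 null and 35.8 in the wild type, 3.44-fold lower. TLC1, the RNA template of telomerase, had 37.0 units in the ubp10 null, against 85.3 in the wild type, 2.31-fold lower. Of 4 genes for ribosomal RNA 2 were called higher and 0 lower, and these genes too were dim, with a wild-type median of 7.0 units. RDN25-1 stood at 34.9 units in the ubp10 null and at 7.4 in the wild type, 4.71-fold higher, and RDN5-3 read 78.7 units in the ubp10 null and 11.9 in the wild type, 6.61-fold higher. RDN5-1 was not called, with 11.3 units in the ubp10 null and the wild type at the floor, and RDN18-1 was at the floor on both arrays. The control probe sets for ribosomal RNA differed too: 5 of 10 were above the floor in the ubp10 null and 1 of 10 in the wild type. The part that ribosomal RNA in the labelled samples plays in the tRNA values was not tested.

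Agreement between probe sets of a gene gives the only internal check of precision. Of 5656 genes 315 had more than 1 probe set, and the median SD of the log2 ratio between the probe sets of a gene was 0.49. Of 21 such genes called higher, 16 had a higher value in the ubp10 null on every probe set, and of 5 called lower 3 had a lower value on every one. In 13 genes, probe sets were called in opposite directions, among them FKS1, a glucan synthase, NPL3, an RNA-binding protein, and SWI1, a chromatin remodeller. For NPL3, 1 probe set read 2760.2 units in the ubp10 null and 824.1 in the wild type, while another read 249.1 units in the ubp10 null and 612.4 in the wild type. As probe sets, 913 of 9275 were higher (9.84%) and 597 lower (6.44%). Those with no listed gene were 217 higher and 65 lower of 2443.

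The study holds a second pair of strains that differ in UBP10 alone by their labels, the double null and the strain labelled sir4 null, which shares no array with the first pair. There 449 genes were higher (7.94%) and 176 lower (3.11%). Of the 534 genes higher in the ubp10 null of the first pair, 93 were also higher in the double null, 19 were lower and 422 were not called. The 93 are 17.4% of the first list and 20.7% of the second. Of the 476 lower genes 33 were also lower, 19 were higher and 424 were not called, the 33 being 6.93% of the first list and 18.8% of the second. Across 4642 genes above the floor on all 4 arrays the log2 ratios of both pairs had a Pearson r of 0.173 and a Spearman rho of 0.185. Genes are not independent replicates, and the part of the weak 5′ signal of the array labelled sir4 null in the second ratio was not tested. The second pair also differed in mating-type transcripts: all 7 a-specific genes were lower in the double null, where MFA2 read 14.8 units, against 761.0 on the array labelled sir4 null. The part of that difference in the other ratios was not tested.

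**Figure D5:**
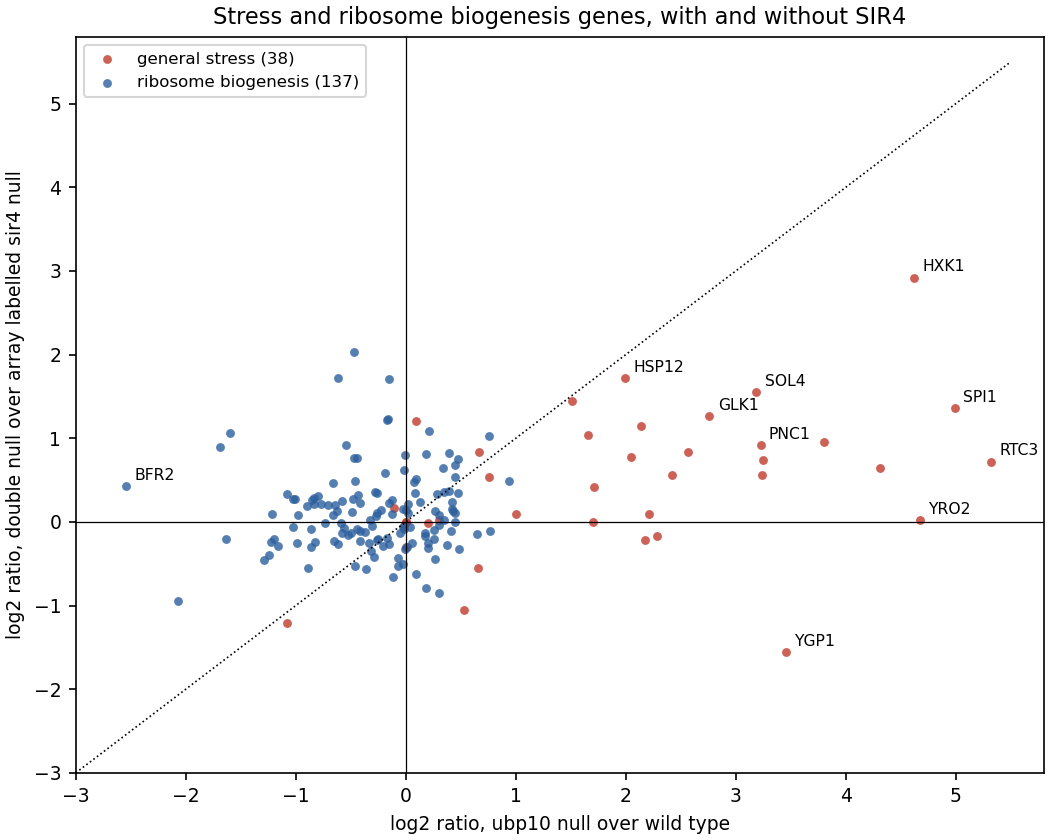
log2 ratio of the double null to the array labelled sir4 null (vertical) against log2 ratio of the ubp10 null to the wild type (horizontal) for 38 general stress genes (red) and 137 ribosome biogenesis genes (blue), with 1 point for a gene and the dotted line marking equal ratios. Most stress genes lie right of 0 and below the dotted line, with medians of 2.02 on the horizontal and 0.55 on the vertical axis.

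General stress genes were fewer among the calls of the second pair, with 9 of 38 higher and 3 lower and a median of 0.55. Over all genes of that pair 7.94% were higher and 3.11% lower. The difference between the pairs was not tested. HXK1 read 121.9 units in the double null and 16.1 on the array labelled sir4 null. HSP12, a small membrane-protecting heat shock protein, had 98.5 units in the ubp10 null, against 24.7 in the wild type, 3.99-fold higher, and had 219.8 units in the double null and 66.8 on the array labelled sir4 null. Both genes were called higher in both pairs. SOL4, GRE3, MSC1, GLK1, SPI1 and MSN4 were the other general stress genes called higher in both. RTC3, bright in the ubp10 null, read 25.7 units in the double null and 15.6 on the array labelled sir4 null. HSP30 read 12.9 units in the double null and 9.2 on the array labelled sir4 null. SSA4 had 25.3 units in the double null and 30.5 on the array labelled sir4 null, so the bright values of HSP30 and SSA4 were found in the ubp10 null alone of the 4 arrays. Ribosome biogenesis genes had 8 higher and 0 lower of 137 in the second pair, with a median of 0.08. Of 91 tRNA genes 0 were higher and 8 lower there. Both counts stand beside the same 7.94% higher and 3.11% lower over all genes.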

How the data were processed

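RNA of 4 yeast strains was hybridised to 1 Affymetrix Yeast Genome S98 array each. The deposited intensities come from the MAS 4.0 software, per the labels. Its average difference is linear and can be negative. A global scaling by the authors is not stated in the labels. A trimmed mean over the central values was 100.1 units in the ubp10 null and 100.0 in the wild type, so no further scaling was used.

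From these values, the noise SD was the scaled median of the negative values of all 4 arrays, mirrored about 0. Of 9335 probe sets 60 were controls. The platform's gene annotation, brought up to date with RefSeq through gene identifiers, named 1 gene for 6504 probe sets, several for 328 and none for 2443. Floored log2 values were averaged over the probe sets of a gene. No test was possible with 1 array a strain. The calling rule was tried on simulated data first.

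The members and gene lists (53 lists from textbook knowledge, 1503 genes measured) were chosen with earlier results of these data known. Named genes were the target and its neighbours, the 20 largest rises and falls above the floor on both arrays, the 10 brightest calls per direction with the other array at the floor, up to 6 called members per list and direction, and all members of lists of 12 or fewer. Pair members, non-coding RNAs, the SIR genes, RPA190, POL30 and other uncalled genes were named for their role after their values were seen. Promoter motifs were not analysed here, and no coordinates are given because no genome was used.

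Alternatives were quantile normalization, cyclic loess, a median ratio set to 0, ratios of 1.5 and 3, a halved floor and a doubled floor, a brightness minimum of 4 floors, genes above the floor on both arrays only, probe sets as units and plain probe sets alone. The count of tRNA genes was added after seeing the data. Python 3.11.15 with numpy 2.4.6, pandas 2.3.3, scipy 1.17.1 and matplotlib 3.10.9, and R 4.3.3 with limma 3.58.1, were used.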

Additional observations from a re-analysis of the deposited data

Results flagged for a closer look

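For 9 named genes, the ubp10 null and the double null moved in opposite directions against their partner arrays, past the calling rule in both. Of all 534 genes higher in the first pair 19 (3.56%) were lower in the second, beside 3.11% of all genes. Of the 476 lower genes 19 (3.99%) were higher in the second, beside 7.94% of all genes. Opposite calls were thus near or below the shares over all genes. In 6 of the 9 named genes the ubp10 null was lower than wild type, but the double null was higher than the array labelled sir4 null. ARE1, of sterol ester synthesis, had log2 ratios of -1.148 in the first pair and 1.287 in the second, DHR2, an RNA helicase of ribosome synthesis, -1.597 and 1.064, and NIT1, a nitrilase, -1.979 and 1.28. PDH1 had -1.312 and 1.051, PMA2, a minor proton pump, -2.235 (a bound) and 2.014, and SWD1, of the Set1 complex, -1.232 and 1.394. The other 3 genes were higher in the ubp10 null and lower in the double null. PHM8, a phosphatase, had log2 ratios of 3.818 (a bound) and -1.054, PRM5, a gene induced by pheromone, 1.05 and -1.396, and YGP1, a secreted glycoprotein, 3.457 and -1.556. With 1 array a strain none of these differences was tested.

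Control probe sets for ribosomal RNA, which are left out of the gene counts, gave signal in the ubp10 null. Of 5 for 18S RNA, a pair labelled a and b read 48.9 and 39.3 units in the ubp10 null, against -0.7 and 3.0 in the wild type. Of 5 for 25S RNA, those labelled a and e read 27.6 and 75.0 units in the ubp10 null, against 3.7 and 11.6 in the wild type. The difference was not tested.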

How the results depend on the processing

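The counts of 534 genes higher and 476 lower depended most on the ratio asked for. A ratio of 1.5 gave 1033 higher and 1056 lower, and a ratio of 3 gave 215 and 107. Taking non-control probe sets as units gave 913 higher and 597 lower. With plain probe sets alone the count of tRNA genes higher went to 0, since 3 of 92 tRNA probe sets have a plain name; under the other settings it lay between 19 and 35, beside 28. Quantile normalization gave 458 higher and 579 lower, cyclic loess 527 and 479, and the median ratio set to 0 gave 560 and 432. Halving the floor gave 613 and 522, doubling it 433 and 383. No gene called turned its direction under any of the settings that keep genes as units. Probe sets as units were not compared in this way, and 13 genes had probe sets called in opposite directions. Quantile normalization retained 454 of the 534 higher and 473 of the 476 lower calls. List medians moved under quantile normalization in 9 of 53 lists and with the floor doubled in 6. Of 270 named log2 ratios, 56 moved with the floor doubled and 0 with another scaling. The cause of these shifts was not tested. No paired analysis was possible because each strain has 1 array, and leaving out a replicate could not be done for the same reason. The number of arrays limits the precision, and dim genes near the floor are given by bounds.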
